A study of Sus scrofa with 24 samples.

Results

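Spleen was compared with liver in 6 crossbred pigs by setting each animal's spleen array against its own liver array, so that 12 of the 24 arrays of the series (4 tissues from the same 6 animals) enter the comparison. The arrays were chosen by their titles, Spleen or Liver followed by the animal number (68, 69, 70, 71, 73 and 75). All animals were weaned at 28 days, fed without restriction and killed at 10 weeks of age by exsanguination after stunning, with no treatment in either group. Each array held Cy3-labelled RNA of 1 frozen tissue sample from 1 pig, made from 200 ng of total RNA whose integrity number exceeded 7.5. The sample is whole tissue, so each value mixes all the cell types in it and any blood left in it.

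The spleen filters blood and answers antigens carried in it. Its white pulp holds B cell follicles and T cell zones, its red pulp holds macrophages that take up old red cells, and a capsule and trabeculae of smooth muscle and elastic matrix hold it together. The liver is mostly hepatocytes, which make plasma proteins, bile acids and glucose and break down amino acids and foreign compounds, beside sinusoidal endothelium, resident macrophages called Kupffer cells, stellate cells and bile duct cells.

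Levels are given as log2 signal relative to the array's own 75th percentile, so that 0 is that percentile and 1 unit is 2-fold, and differences are Spleen minus Liver on the same log2 scale. A probe's level depends on its sequence as well as its transcript, so levels are compared between tissues and not between genes. A gene was called where the paired limma fit gave an adjusted p under 0.05 and a difference of at least 1. Of 10242 named genes tested, 2161 were called higher in Spleen (21.1%) and 1896 lower (18.5%), and the median difference over all tested genes was 0.11. Counts of called list members below are to be read beside these shares. In 3982 of the 4057 called genes all 6 animals differed in the called direction, and in 3738 the levels of both tissues did not overlap. Both counts follow largely from the call, which used the same arrays, and are no separate support for it. A gene was tested if a probe was well above background on all 6 arrays of either tissue. For genes dim in the other tissue this filter largely set the direction, so list counts of such genes are no separate support either. Both tissues of an animal lay on the same slide, 2 animals per slide, and 3952, 3906 and 4047 genes were called within slides 1, 2 and 3 and 4051 with slide as a block. The p-values measure the spread between these 6 animals.

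The signal at the 75th percentile was 424 to 526 on Liver arrays and 275 to 1098 on Spleen arrays, and no probe was saturated. The number of arrays limits the precision. Levels on any pair of arrays correlated over probes at 0.961 to 0.989 within Spleen, 0.975 to 0.989 within Liver and 0.682 to 0.744 between the tissues. ALB, which encodes albumin, lay between 9.71 and 10.11 in Liver and between -2.73 and 2.43 in Spleen, and the B cell complement receptor gene CR2 was well above background on all 6 Spleen arrays and on no Liver array. Spleen arrays of 2 animals were often the highest in markers of other tissue. The array of animal 68 had the highest Spleen level for 22 of the 34 tested plasma protein genes. It was the top of a graded series, with a mean level of these genes of -1.03 against -1.62 in animal 75 and -3.24 in animal 69, the lowest. That of animal 73 had the highest Spleen level for 6 of the 9 tested bile duct markers, with EPCAM, an epithelial adhesion gene, at -1.23 against -4.88 or less on the other Spleen arrays. Results that rest on these genes are given with these values beside them.

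The reach of the differences was unequal. By measured signal of each gene's brightest probe (highest mean over 12 arrays), 508 called genes were lower by at least 16-fold and 171 by at least 256-fold. On the same measure 110 were higher by at least 16-fold and 0 by at least 256-fold. These counts depend on the probe taken. The 13 probes of STMN2, all called higher, ran from 3.20 to 10.25 with a median of 8.02, while its brightest gave 5.44. Of the called genes 129 were well above background on no Liver array and 99 on no Spleen array. For such genes the fold is given as a lower bound, from the bright tissue's mean against the lowest signal that counted as above background on each dim array, or the probe's own signal where that was higher. Some genes described here were above background on part of the dim tissue's arrays, and their differences include signals below that level. In Liver these were CCR7, CD79B, GPR65, IL2RG, IL6 and UHRF1 (5 of 6 arrays), RASGRP2 and TLR10 (4) and UPK1B (3), and in Spleen CCL16, CPA1, OIT3 and SLC40A1 (5), KRT19, LBP and LYVE1 (4), RGS16 (3), KRT18, PRG4 and PZP (2), and APOA4 and FOXA1 (1), while others are counted where they appear. Among genes above background on all 12 arrays the highest differences belonged to CXCL13, ACTG2, MGC29506, IGLL1, CNN1, IGJ, CHODL, STMN2, MSC and VPREB1, from 7.51 down to 5.18. The lowest belonged to TTR, LECT2, ORM1, CES3, VTN, CES1, MAT1A, HPX, APOC3 and C5, from -11.91 to -10.94. This order is by the brightest probe. Other probes, all called lower, reached -2.21 for VTN, -5.77 for ORM1, -6.06 for CES3, -7.12 for CES1, -7.27 for MAT1A and -8.28 for C5. The probes of TTR, LECT2 and APOC3 lay close together, and HPX had 1. Immunoglobulin, chemokine and smooth muscle genes are among the first group, and plasma protein genes with enzymes of methionine and ester metabolism among the second. Probes of genes at the upper end of the range are shown by their first 30 of 60 bases, with no base singled out, since each value is the signal of such a stretch:
CXCL13: gggccctctggtgttcaattctttaatgct
CR2: taccaacttgtatcaaaaaggctttcttcg
MYH11: agctcagtgacgatgagaagttcctctttg

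**Figure D1:**
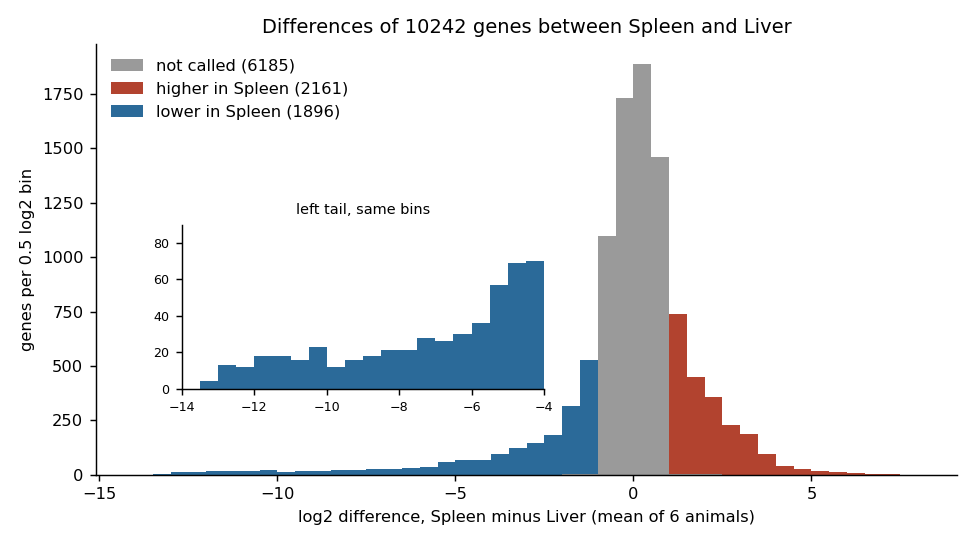
Histogram of the log2 difference (Spleen minus Liver, x axis, mean of 6 animals) over 10242 genes in bins of 0.5 (y axis, number of genes), coloured by call, with the left tail enlarged in the inset. By the brightest probe of each gene, the 2161 genes called higher end at 7.51, while the 1896 called lower reach -13.49.

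The B cell genes had the largest median among the lists higher in Spleen. All 9 tested members of the B cell receptor and surface list were higher, with a median difference of 5.39, or 3.18 under normexp background correction (the list's other 7 members had no named probe or were dim in both tissues). CR2, a complement receptor that follicular dendritic cells share with B cells, had levels from -1.08 to 0.77 with a median of 0.04 in Spleen, and from -7.41 to -6.62 with a median of -7.25 in Liver. The tissues did not overlap. Its probe was above background on no Liver array, and CR2 was at least 30.2-fold higher in Spleen (adjusted p = 5.4e-08). MS4A1, the CD20 gene, differed by 5.58, and CD79B, a chain of the B cell receptor, by 5.72, with 5 of 6 Liver arrays above background for both. Since these are whole tissues, more cells of a type and more RNA per cell cannot be told apart, here and for every cell type that follows.

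Regulators of B cells were higher in 13 of 16 tested and lower in 0, with a median of 2.19, or 2.87 with the mean of a gene's probes. SPIB, a transcription factor of B cells, was higher by 4.94, and POU2AF1, a coactivator of immunoglobulin genes, by 4.22. EBF1, which sets the B cell programme, was at least 9.37-fold higher (adjusted p = 6e-07). PAX5 and BCL6 were not called, at -0.78 and 0.25. In the plasma cell list 7 of 12 tested genes were higher and 0 lower. They were led by MGC29506, named as in the files, at 6.30, by the immunoglobulin light chain-like gene IGLL1 at 6.16, and by IGJ, the joining chain of polymeric antibody, at 5.83. Genes of the general secretory pathway in this list were not called, with XBP1, a regulator of the endoplasmic reticulum, at -0.49 and SSR4 at 0.05.

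CXCL13, the chemokine that draws B cells into follicles, had levels from 3.05 through a median of 4.03 to 4.62 in Spleen and from -4.08 through -3.63 to -2.39 in Liver. The groups were far apart, and animal 75 had the highest Liver level. The difference was 7.51 ± 0.36 (SE, n = 6 animals), or 182-fold. LTB, the lymphotoxin subunit that keeps follicles organised, was higher by 4.98, and MADCAM1, a vessel adhesion molecule for lymphocytes, by 3.38. CCL21, a chemokine of the T cell zone, was higher by 2.38. CCL19, which shares its receptor, was higher by 1.1 with overlapping groups, and this call was lost without animal 68, 70, 71 or 73 (differences of 0.96, 0.91, 1.04 and 0.92). Of the 29 tested chemokines and organisers 15 were higher and 2 lower. The lower ones were CCL16, a chemokine known from liver, at -11.61, and the death ligand gene TNFSF10 at -1.25.

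Chemokine receptors were higher in 12 of 18 and lower in 1. CCR6 was at least 5.51-fold higher (adjusted p = 4.5e-07), CXCR4, the receptor for CXCL12, was higher by 4.14, and ACKR1, a scavenging receptor of vessels and red cells, by 4.0. ACKR4, a scavenger of CCL19 and CCL21, was the 1 lower receptor at -2.61, with 4 of 6 Spleen arrays above background.

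T cell genes were higher in 19 of 21 tested, with a median of 3.57. CD3E, a chain of the T cell receptor complex, lay between 1.54 and 2.51 in Spleen and between -3.55 and -1.45 in Liver and differed by 4.18 ± 0.22. CCR7, the receptor for CCL19 and CCL21, differed by 4.73, the adhesion gene CD2 by 3.71, the chain gene CD8A by 3.04 and CD4 by 1.82. IL2RA, the interleukin 2 receptor chain of regulatory and activated T cells, went the other way. It was above background on all 6 Liver arrays and on no Spleen array, and was at least 8.53-fold lower in Spleen (adjusted p = 7.5e-06). CTLA4, also a gene of regulatory T cells, was at least 3.80-fold higher in Spleen (adjusted p = 1.2e-06). LCK was not called by its brightest probe and is described with the probes that disagree.

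Of 20 tested genes of NK and cytotoxic cells, 18 were higher and 0 lower, with a median of 2.60. XCL1, a chemokine of activated NK and T cells, differed by 3.58, the granzyme gene GZMM by 3.37 and the receptor gene KLRK1 by 3.26. TBX21, a regulator of these cells, was at -0.61 and the granule gene GNLY at 0.47, and neither was called. Genes of class II antigen presentation and dendritic cells were higher in 15 of 17, with a median of 3.18. SLA-DRA, the pig's class II alpha chain, ran from 7.07 to 7.48 in Spleen and from 3.62 to 4.74 in Liver, and the invariant chain gene CD74 differed by 3.33. The range of SLA-DRA within Spleen was small beside its difference of 3.0.

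Class I presentation looked different. SLA-1, a classical class I chain, had medians of 8.82 in Spleen and 9.16 in Liver, and B2M, its light chain, 8.12 and 8.36, with overlapping groups and differences of -0.12 and 0.06. These genes are used by nearly all nucleated cells. Of the 17 tested members 8 were higher, 0 lower and 9 not called. The higher members were the chain genes SLA-6 (3.03) and SLA-8 (2.12), the regulator gene NLRC5, the peptide transporter genes TAP1 and TAP2, and the immunoproteasome subunits PSMB8 (2.31), PSMB9 and PSMB10.

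Signalling molecules of leukocytes were higher in 46 of 52 tested and lower in 0, with a median of 2.95. STAT4, which relays interleukin 12 signals, differed by 3.91, with 3 Liver arrays above background, and RHOH, an adaptor of T cell receptor signalling, by 3.63. The kinase genes SYK and JAK3 differed by 3.46 and 3.41. PTPRC, the pan-leukocyte CD45 gene, differed by 1.62, and its 3 probes ranged from 1.62 to 3.63, with the brightest at the low end. Among transcription factors of blood cells 15 of 24 were higher, with TOX at 4.64, MYB at 3.92 and IKZF2 at 3.75, although only 2, 1 and 5 Liver arrays were above background for them. GATA2, a factor of blood stem cells, mast cells and endothelium, was the 1 lower member. Its levels were -0.86 to -0.29 in Spleen and 2.07 to 3.61 in Liver, a difference of -3.74 ± 0.21.

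Receptors and regulators of G protein signalling were higher in 24 of 29 and lower in 3, with a median of 2.16. GPR65, an acid-sensing receptor, differed by 3.40, the nucleotide sugar receptor gene P2RY14 by 3.38 and RGS1, which damps chemokine receptors, by 3.27. The lower ones were the adrenergic receptor gene ADRA1A at -3.26, the adenosine receptor gene ADORA2A at -1.05 and RGS16 at -2.29. ADORA2A lost its call with the authors' deposited values (-0.93), normexp (-0.99) and quantile normalization (-0.89). Cytokine and receptor genes were higher in 14 of 28 and lower in 4. IL6 was higher by 4.41, with levels of -0.54 to 0.64 in Spleen and -4.70 to -3.57 in Liver, and IL2RG, the shared chain of several lymphocyte cytokine receptors, by 4.31. IL1R1, the signalling receptor of interleukin 1, differed by -4.39. Toll-like receptors and innate sensors were higher in 13 of 21, with TLR10 at 4.0 and TLR8 at 3.61. LBP, which carries bacterial lipopolysaccharide, and TLR3, a sensor of double-stranded RNA, were the 2 lower members, at -6.03 and -1.25.

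**Figure D2:**
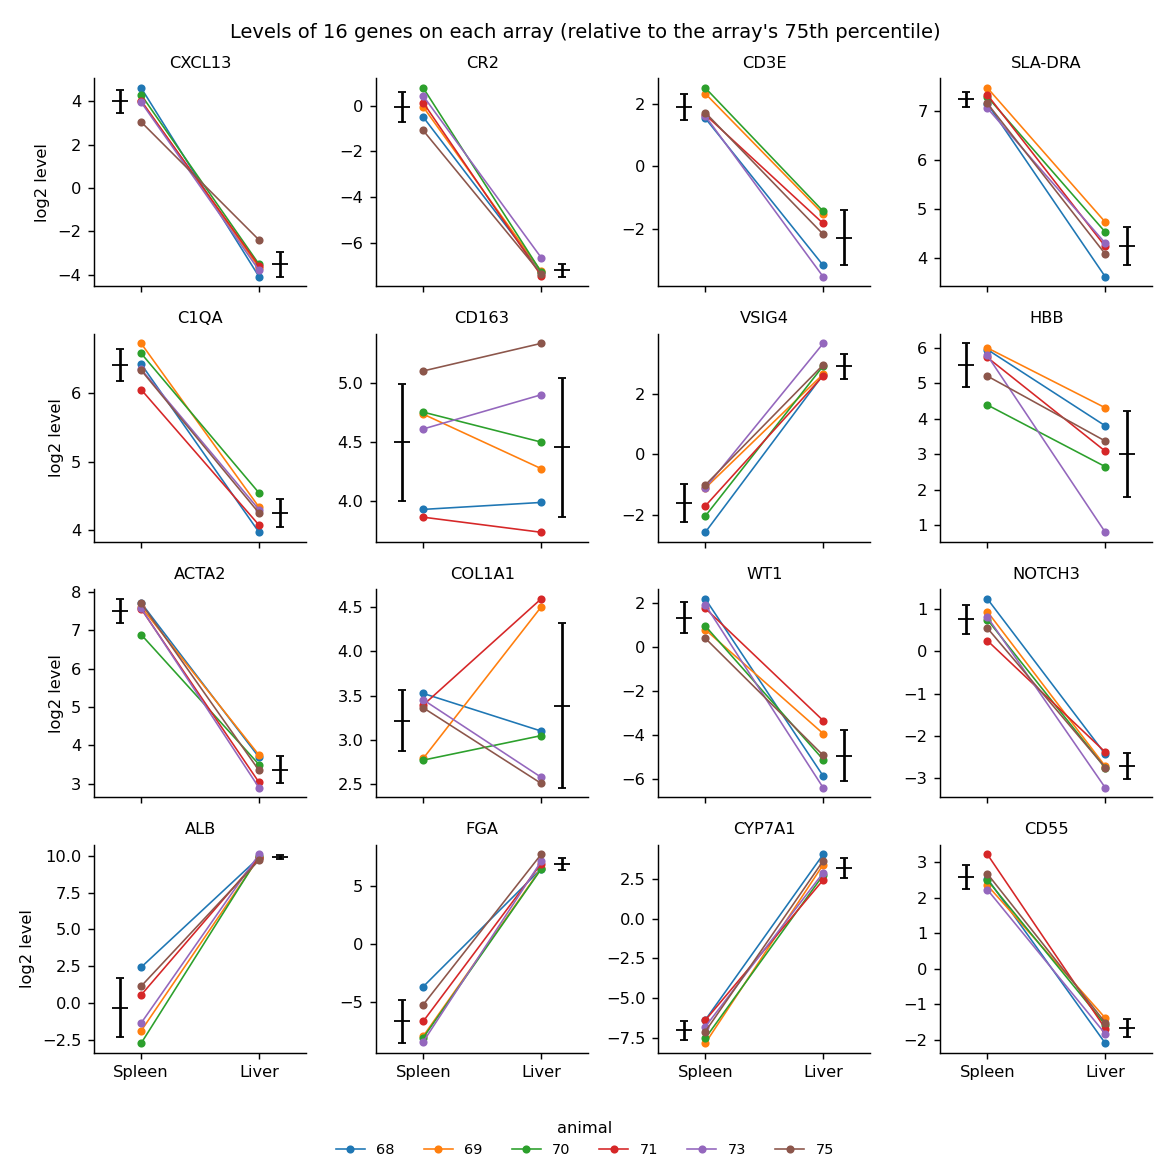
Log2 level relative to the array's 75th percentile (y axis) of 16 genes on the 6 Spleen and 6 Liver arrays, with points of 1 animal joined and bars giving mean ± SD. CXCL13, CR2, CD3E, SLA-DRA, C1QA, HBB, ACTA2, WT1, NOTCH3 and CD55 are separated with Spleen above, VSIG4, ALB, FGA and CYP7A1 with Liver above, while CD163 and COL1A1 overlap.

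Macrophage genes split. Of 27 tested 15 were higher in Spleen, 4 lower and 8 not called. C1QA, a chain of the complement protein that macrophages make, ranged from 6.05 to 6.72 in Spleen and from 3.97 to 4.54 in Liver, a difference of 2.16 ± 0.11, and C1QB and C1QC differed by 2.15 and 2.18. All 3 chains were higher in Spleen. VCAM1, an adhesion gene of red pulp macrophages and stroma, differed by 4.03, and CSF1R, the growth factor receptor of macrophages, by 2.69. SLC11A1, a metal transporter of the phagosome, differed by 3.26, with its 3 probes between 0.61 and 3.27. HMOX1, which breaks down haem, was higher by 1.95, while SLC40A1, the iron exporter, was not called at -0.63. LPL, a lipase, was at least 8.41-fold higher (adjusted p = 2.1e-07).

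The 4 lower macrophage genes were VSIG4, FOLR2, MRC1 and CD14. VSIG4, a complement receptor of Kupffer cells, lay between -2.58 and -1.02 in Spleen and between 2.59 and 3.65 in Liver, a difference of -4.49, and 5 of its 6 probes were called lower while the remaining one gave -0.95. MRC1, the mannose receptor of macrophages and sinusoidal endothelium, differed by -3.93. FOLR2, a folate receptor of tissue macrophages, differed by -5.21 on its brightest probe and by 0.34 on its other one, so that its direction was not the same on both. CD14, the lipopolysaccharide coreceptor, differed by -3.44 ± 0.91 and its groups overlapped through 1 array: Spleen of animal 70 was at 7.33 and the other 5 Spleen arrays between 0.18 and 0.95, against 4.71 to 5.27 in Liver. Without animal 70 the difference was -4.59. On its other probes that same array was at 0.57 and -2.86, and the differences were -4.66 ± 0.14 and -5.18 ± 0.21. CD163, the scavenger receptor for haemoglobin, did not separate the tissues: its medians were 4.68 in Spleen and 4.39 in Liver, and its difference was 0.04 ± 0.13.

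Granulocyte and monocyte genes were higher in 11 of 19 and lower in 2. CXCR2, a receptor for neutrophil-attracting chemokines, differed by 3.51, and S100A9, a neutrophil calcium-binding protein, by 1.93. FCN2 and ARG1, which hepatocytes also express, were lower at -5.05 and -4.0. Red cell genes were higher in 9 of 20 and lower in 3. HBB, beta globin, ranged from 4.39 to 6.0 in Spleen and from 0.81 to 4.31 in Liver, a difference of 2.50 ± 0.42. AHSP, the chaperone of alpha globin, differed by 3.08. TFRC, the transferrin receptor, and CA2, a carbonic anhydrase, were lower, at -3.01 and -3.62. SLC4A1, the band 3 gene, was at -2.01 on its brightest probe and at 1.94 on its other one, so that its direction depends on the probe. Platelet genes were higher in 9 of 17 with 0 lower. CD36, a scavenger receptor also found on macrophages and endothelium, differed by 4.93 and RASGRP2 by 3.86, while the integrin chain gene ITGA2B, a defining marker of the lineage, was at -0.46 and not called.

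**Figure D3:**
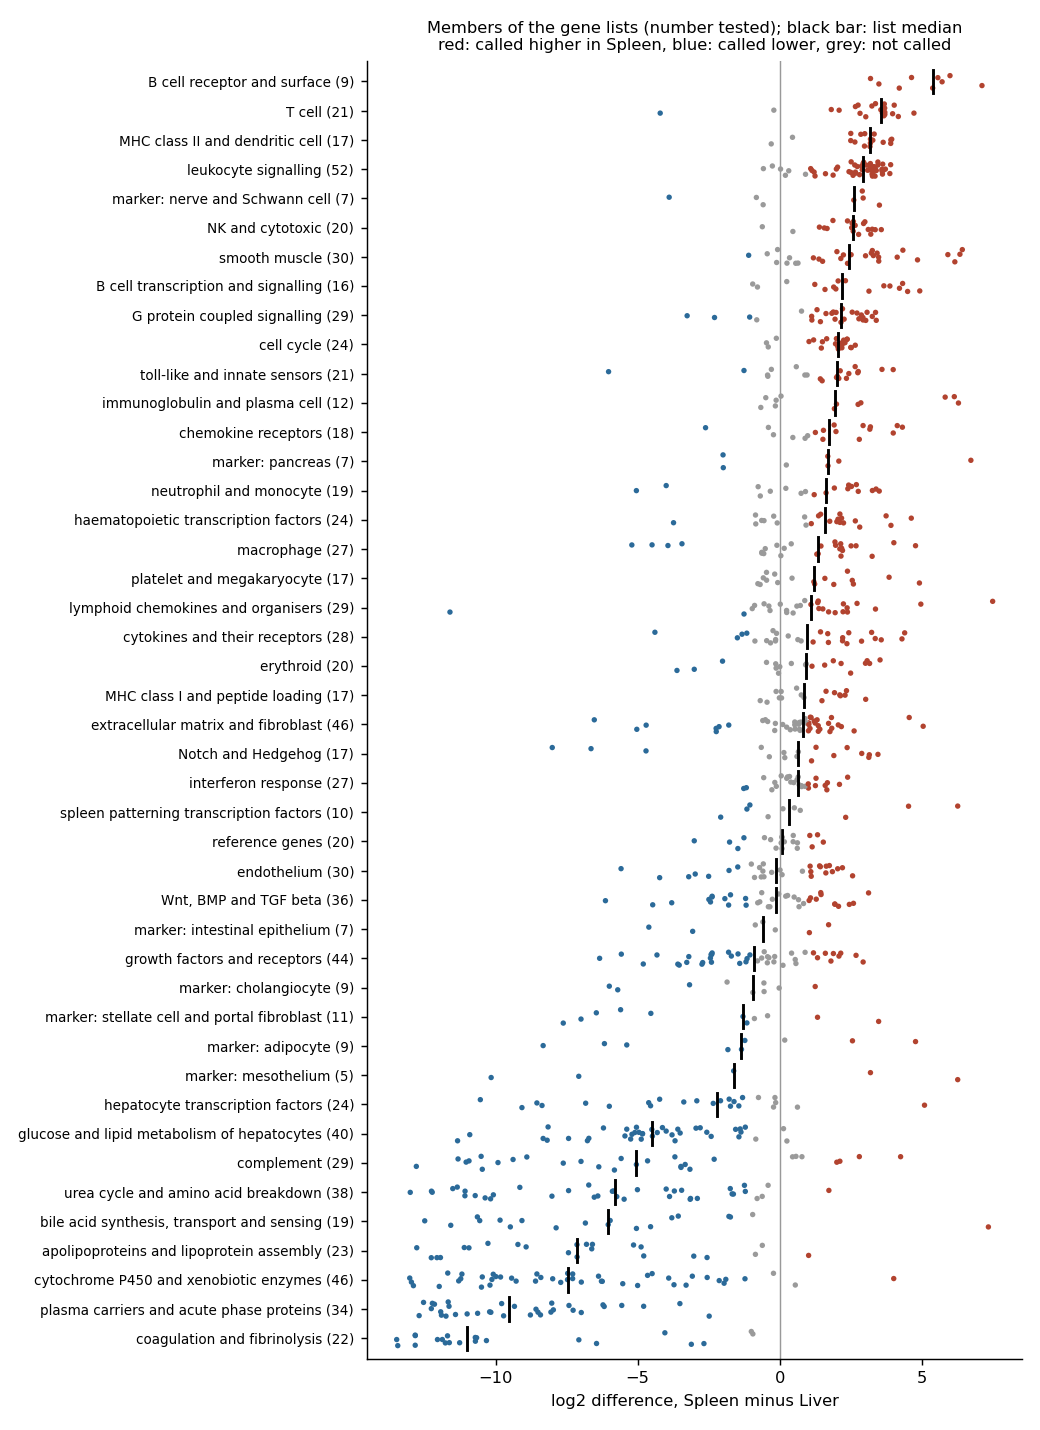
Log2 difference (Spleen minus Liver, x axis) of each tested member of 44 gene lists (y axis, number tested in brackets), coloured by call, with the list median as a black bar. Medians run from -11.00 for coagulation and fibrinolysis to 5.39 for B cell receptor and surface genes, and the macrophage, matrix, endothelium, Wnt and Notch lists hold called members on both sides of 0.

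Smooth muscle genes were a further large block of genes higher in Spleen, with 22 of 30 higher, 1 lower and a median of 2.46. ACTG2, enteric smooth muscle actin, lay between 5.59 and 6.60 in Spleen and between -1.12 and 1.20 in Liver and differed by 6.44 ± 0.40, although its other probe gave 2.15. MYH11, a myosin heavy chain specific to smooth muscle, was at least 32.2-fold higher (adjusted p = 3.9e-06), and HSPB7, a muscle chaperone, at least 28.6-fold higher (adjusted p = 7.3e-07). CNN1, calponin, differed by 5.93, the actin-binding gene TAGLN by 4.34, the smooth muscle actin gene ACTA2 by 4.14 and the intermediate filament gene DES by 3.49. CALD1, caldesmon, was the 1 lower member at -1.09, a call lost with quantile normalization (-0.32) and the authors' deposited values (-0.65). MYOCD, a regulator of the smooth muscle programme, and SMTN were not called, at 0.65 and 0.35. For 25 of the 30 genes the Spleen array of animal 70 had the lowest Spleen level, and the list median was 2.56 without that animal.

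Matrix genes moved both ways. Of 46 tested 21 were higher, 7 lower and 18 not called. TNC, tenascin, ranged from 1.24 to 1.78 in Spleen and from -3.95 to -3.06 in Liver and differed by 5.06, and ELN, elastin, differed by 4.57 ± 0.34. FBLN1, a glycoprotein of elastic fibres and plasma, was at -6.53 on its brightest probe and -4.82 on its other one, POSTN, periostin, at -5.03, and FN1, fibronectin, which hepatocytes secrete into plasma, at -4.70. These 3 were lower in Spleen. The main fibrillar collagens did not separate the tissues. COL1A1 had medians of 3.38 in Spleen and 3.07 in Liver, ranged from 2.51 to 4.59 within Liver, and differed by -0.17 ± 0.36, and COL3A1 differed by 0.25 ± 0.25. Basement membrane genes were divided, with COL15A1 at 2.62, COL4A1 at 1.42 and COL18A1 at -2.24.

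Of the 10 tested transcription factors known from spleen patterning 3 were higher and 3 lower. Over all tested genes 21.1% were higher and 18.5% lower, so these counts do not set the list apart. WT1, which is needed for the spleen to form and is also a mesothelial gene, ranged from 0.39 to 2.18 in Spleen and from -6.42 to -3.36 in Liver, with 2 Liver arrays above background, and differed by 6.28 ± 0.51. The tissues did not overlap. PRRX1, a factor of mesenchyme, was at least 10.5-fold higher (adjusted p = 4.4e-06) and TCF21 differed by 2.33. HOXA5 and HAND2 were among the lower ones, at -2.08 and -1.15, and HAND2 lost its call when all 24 arrays were fitted (adjusted p = 0.064 with and 0.066 without the replicate block). The mesothelial markers beside WT1 did not move as a group, with UPK1B at 3.20, PRG4 at -1.62, KRT8 at -7.08 and KRT18 at -10.16, and the keratins are also expressed by hepatocytes.

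Endothelial genes split into 12 higher, 7 lower and 11 not called of 30. OIT3, a gene of liver sinusoidal endothelium, lay between -4.67 and -3.33 in Spleen and between 1.06 and 2.11 in Liver and differed by -5.59 ± 0.12, with its 4 probes from -5.59 to -1.15. The sinusoidal genes CLEC4G, LYVE1 and FCGR2B were lower too, at -3.20, -2.97 and -2.50, although LYVE1 had another probe at -0.98 and FCGR2B one at -0.81. AQP1, a water channel of vessels and red cells, was higher by 2.57, the adhesion gene ICAM2 by 1.86, and PLVAP, which forms diaphragms of capillary windows, by 1.63. PECAM1, a marker of nearly all endothelium, differed by -0.28 and was not called.

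Developmental signalling was as mixed. In the Wnt, BMP and TGF beta list 11 of 36 were higher and 12 lower, with a median of -0.14. The shares over all tested genes were 21.1% higher and 18.5% lower. TGFB1, a cytokine that restrains lymphocytes, had levels of 2.43 to 2.63 in Spleen and -0.25 to 0.21 in Liver and was higher by 2.60 ± 0.11. CHRD, which binds and blocks BMPs, was at -6.14, LGR4, the R-spondin receptor, at -4.47, and WNT2, a ligand of sinusoidal endothelium, at -3.80, with 2 Spleen arrays above background for LGR4 and 1 for WNT2. All 3 were lower in Spleen. In the Notch and Hedgehog list 8 of 17 were higher and 3 lower. NOTCH3, the receptor of vascular muscle, ranged from 0.26 to 1.24 in Spleen and from -3.22 to -2.38 in Liver and was higher by 3.46. MFNG and LFNG, which modify Notch receptors, were higher by 3.16 and 3.14, and the target gene HEY2 by at least 4.10-fold (adjusted p = 3.8e-06). NOTCH1 was lower at -4.71 on its 1 probe. IHH, a Hedgehog ligand, was lower at -8.01 and HHIP, which binds Hedgehog ligands, at -6.64, with 2 and 1 Spleen arrays above background.

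Growth factors and receptors were lower in 22 of 44 and higher in 9. IGFBP2, a carrier of insulin-like growth factors, lay between -1.46 and -0.18 in Spleen and between 5.36 and 5.98 in Liver and differed by -6.34. KLB, the coreceptor of endocrine fibroblast growth factors, was at least 13.7-fold lower (adjusted p = 4.9e-07), and the growth hormone receptor gene GHR differed by -3.20. IGFBP5 was higher by 2.94 and the stem cell factor receptor gene KIT by 2.09. IGF1 gave 1.81 on its brightest probe and -4.08 and -2.72 on its others, so that its direction depends on the probe.

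Proliferation genes were higher in 21 of 24 tested, with 0 lower and a median of 2.07. CDK1, the kinase that starts mitosis, had levels of 0.94 to 2.19 in Spleen and -1.62 to 1.11 in Liver, and UHRF1, which helps copy DNA methylation, differed by 2.67. The groups of CDK1 overlapped. For 18 of the 24 genes the Spleen array of animal 68 had the lowest Spleen level, and the list median was 2.16 without that animal. Interferon-response genes were higher in 9 of 27, lower in 2 and not called in 16, with a median of 0.66. Over all tested genes 21.1% were higher and 18.5% lower. MX1, an antiviral protein, was at 0.66 and not called, and the GTPase gene GBP1 was higher by 2.40.

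The largest differences below 0 belonged to hepatocyte genes. In the coagulation list 20 of 22 tested genes were lower and 0 higher, with a median of -11.00. Of these 22, 10 were above background on all 12 arrays, and the direction of the rest was largely set by the test filter. With only probes above background on all 12 arrays the median was -6.76. FGA, a fibrinogen chain, lay between -8.40 and -3.67 in Spleen and between 6.42 and 7.70 in Liver, with 2 Spleen arrays above background, and its other probe gave -8.07 against -13.49. Of genes above background on no Spleen array, PROC, the anticoagulant protein C, was at least 1706-fold lower (adjusted p = 4.4e-08), KLKB1, prekallikrein, at least 1492-fold (adjusted p = 5.7e-08), and F9, factor IX, at least 1332-fold (adjusted p = 1.3e-07). F3, tissue factor, and TFPI, its inhibitor, which cells outside the liver also make, were just short of a call at -1.0 and -0.94. Each would be called without 1 animal, F3 without 69 (-1.05) or 73 (-1.19) and TFPI without 71 (-1.07) or 75 (-1.1). The scaling mattered too. With all 6 animals both were called lower under median centring (F3 -1.11, TFPI -1.05) and quantile normalization (F3 -1.10, TFPI -1.04).

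All 34 tested genes of plasma carriers and acute phase proteins were lower in Spleen, with a median of -9.53. They ranged from PZP, a protease inhibitor, at -12.70 to SERPING1, the inhibitor of complement C1, at -2.48. TTR, the carrier of thyroid hormone and retinol-binding protein, ran from -5.13 through -2.47 to 0.03 in Spleen and from 8.75 through 9.33 to 9.55 in Liver. The spread was wide within Spleen and narrow within Liver. The highest Spleen level of TTR, as of ALB, FGB and PLG, was that of animal 68. The mean level of the 34 genes on the Spleen arrays was -1.03 in animal 68, -1.62 in 75, -1.85 in 71, -2.68 in 73, -3.15 in 70 and -3.24 in 69, while the 6 Liver arrays lay between 6.71 and 7.35. Without 1 animal at a time the list median lay between -9.85 and -9.32 and that of the coagulation list between -11.30 and -10.80. Without animal 68 these medians were -9.85 and -11.30.

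Within Liver 1 animal stood apart in some acute phase genes. SAA3, a serum amyloid A gene, was at 9.84 in Liver of animal 75 and between 4.62 and 5.60 in the other 5, and SAA1, SAA2 and SERPINA3 were also highest there. CYP1A1, a cytochrome of foreign compound breakdown, was at -0.98 on that array and between 3.85 and 5.13 on the others. PON1 and PON3, esterases carried on lipoproteins, were lowest there too, with PON1 at 0.86, against 2.61 to 6.61 on the others. HAMP, the hormone that limits iron release, varied from 1.31 to 6.80 in Liver and from -2.97 to -2.07 in Spleen.

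**Figure D4:**
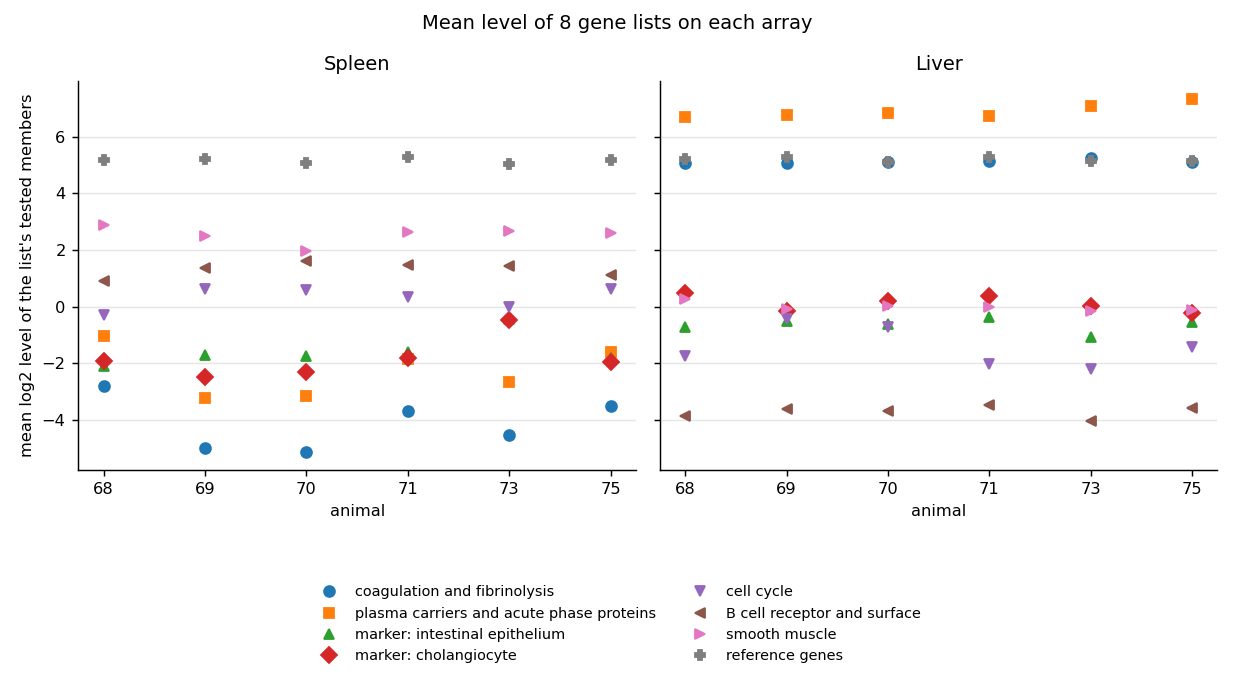
Mean log2 level (y axis) of the tested members of 8 gene lists on each Spleen and Liver array, by animal (x axis). In Spleen the coagulation and plasma protein lists are highest in animal 68 and the bile duct and intestinal markers in animal 73, while the reference genes stay between 5.05 and 5.29 on all 12 arrays.

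Apolipoprotein genes were lower in 20 of 23, with a median of -7.13. APOC3, which slows the clearance of triglyceride particles, differed by -10.95. APOE, which macrophages also make, differed by -4.79 and stayed between 3.87 and 5.25 in Spleen. APOD, a lipocalin, was the 1 higher member at 1.02, with overlapping groups and 1 Liver array above background, and the call was lost without animal 68 (0.84), 69 (0.97) or 70 (0.86). APOA4 was at 1.56 in Spleen of animal 73 and at -4.62 or less in the other 5, and its difference was -7.14 with and -8.40 without that animal. The same array had the highest Spleen level of FABP1 (1.74), SLC51B (-0.79), KRT8 (2.19), KRT19 (-0.33) and LGALS4 (1.45), genes of absorptive and duct epithelium. The epithelial markers KRT19 and LGALS4 were not called with all 6 animals, at -1.85 and -0.86, and were called lower without animal 73, at -2.79 and -1.55.

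Complement genes were lower in 22 of 29, higher in 4 and not called in 3, with a median of -5.05. The terminal component genes C8A and C9 differed by -12.80 and -11.33, with 2 and 1 Spleen arrays above background. C3, the central component, lay between 2.29 and 2.89 in Spleen and between 7.45 and 8.50 in Liver and differed by -5.58. The 4 higher genes were CD55, which protects cells from complement, at 4.26, the activating protease gene CFD at 2.81, CFP, properdin, which myeloid cells make, at 2.12, and CD46, another protector of cells, at 2.02 with 2 Liver arrays above background. CD46 lost its call with the authors' deposited values (0.88) and normexp (0.57). CD55 ranged from 2.23 to 3.22 in Spleen and from -2.09 to -1.38 in Liver, without overlap.

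Metabolic lists were lower almost throughout. Of 46 tested cytochrome P450 and detoxifying enzyme genes 43 were lower and 1 higher, with a median of -7.47. CYP7A1, the rate-limiting enzyme of bile acid synthesis, was at least 403-fold lower (adjusted p = 3.8e-08). The 1 higher gene was CYP1B1, a cytochrome found outside the liver, at least 3.83-fold higher (adjusted p = 1.3e-05). In amino acid breakdown 34 of 38 genes were lower, with FTCD, of histidine breakdown, at least 1448-fold lower (adjusted p = 2.5e-08) and GNMT, of methionine metabolism, at least 404-fold (adjusted p = 1.2e-08), and SDS, serine dehydratase, was higher by 1.74. In glucose and lipid metabolism 37 of 40 were lower and 0 higher, with a smaller median of -4.49. PCK1, of glucose synthesis, differed by -8.33 and FASN, of fatty acid synthesis, by -3.59, while CPT1A, which admits fatty acids to mitochondria, was at 0.14 and FOXO1 at 0.26, neither called.

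Bile acid genes were lower in 17 of 19, with a median of -6.04, which was -3.73 under normexp and -3.69 with the authors' deposited values. Only 6 of the 19 were above background on all 12 arrays, and the direction of the rest was largely set by the test filter. With only probes above background on all 12 arrays the median was -2.68. SLC10A1, which takes up bile acids, differed by -12.50 with 1 Spleen array above background, and NR1H4, the bile acid receptor, was at least 265-fold lower (adjusted p = 1.2e-08). FABP6, the ileal bile acid-binding protein, went the other way. It lay between 1.95 and 3.42 in Spleen and between -5.53 and -4.35 in Liver, with 3 Liver arrays above background, and its 3 probes gave 7.36 to 7.73.

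Hepatocyte transcription factors were lower in 18 of 24, with 1 higher and a median of -2.21, or -4.35 with the mean of a gene's probes. ONECUT1 was at least 598-fold lower (adjusted p = 1.9e-07), the pioneer factor gene FOXA1 differed by -8.55 and CEBPA, which is shared with myeloid cells, by -2.08. PPARG, the lipid-sensing receptor of adipocytes and macrophages, was the 1 higher member, from 2.24 to 3.14 in Spleen and from -2.72 to -2.14 in Liver, a difference of 5.11 ± 0.21, and its 4 probes gave 4.35 to 6.26. By their brightest probe HNF4A was lower at -1.30, while NR1I3 at -0.14 was not called.

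Markers of neighbouring tissue were checked in both organs. Of 7 tested pancreatic genes 4 were higher in Spleen and 2 lower. CELA1, an elastase gene, lay between -1.22 and 0.68 in Spleen and was at least 29.8-fold higher (adjusted p = 5.9e-07), with 3 probes between 6.18 and 6.74. The other 3 higher ones were the lipase gene CEL at 2.09, the amylase gene AMY2 at 1.71 and GP2, a zymogen granule protein, at 1.70, and the calls of CEL (0.80) and GP2 (0.72) were lost under normexp. The pancreatic enzyme genes CPA1 and CELA2A were lower, at -1.98 and -1.99, and CLPS was not called at 0.24. Of 7 nerve markers 4 were higher, with NPY, the peptide of sympathetic nerves, at 3.52 and 2 Liver arrays above background, and the neuronal filament gene PRPH was at least 4.78-fold lower (adjusted p = 2e-05). MBP, also counted as higher, gave 2.61 on its brightest probe, while its other called probes were lower, at -1.34 to -1.01. The median of the nerve markers was 2.61, or -0.58 with the mean of a gene's probes. Of 11 stellate cell markers 7 were lower and 2 higher, and of 9 adipocyte markers 6 were lower and 2 higher. Of 20 reference genes 4 were higher, 4 lower and 12 not called, close to the 21.1% higher and 18.5% lower over all tested genes. Those not called included ACTB at 0.62 (3 of its 5 probes were called higher, up to 1.66), GAPDH at -0.53 and PPIA at 0.48. HPRT1, GUSB and SDHA were lower at -1.26, -1.47 and -1.76. With quantile normalization ACTB (1.29) and PPIA (1.13) were called higher, and HPRT1 (-0.80) and GUSB (-0.84) were not called. The median of the reference genes was 0.09, or 0.76 with quantile normalization and 0.51 with the authors' deposited values, so it depends on the scaling.

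Several genes carried probes that did not give the same answer, and the rule of taking the brightest probe decided their call. Of 4978 genes with several tested probes the median range between probes was 0.284, in 326 (6.55%) the range was at least 2, and in 29 probes were called in opposite directions. Among these genes 2968 were not called by their brightest probe, and 425 of those had another probe that was called. The probe that stood for LCK, the kinase of the T cell receptor, gave -0.20 ± 0.10 while its 3 other probes gave 2.44 to 3.91. For HNF4A, a master regulator of hepatocytes, the brightest probe gave -1.30 and the other 3 gave -7.39 to -6.54. Of the 4 probes of NR1I3, a sensor of foreign compounds, 3 lay between -0.14 and -0.04 and 1 at -11.35. For HNF4A the brightest probe gave the smallest difference. HAL, of histidine breakdown, gave -0.41 and -0.43 on 2 probes and -7.33 to -4.24 on 4, CYP1A2 gave 0.55 and -10.13, and LTA, a lymphotoxin gene, -0.34 and 6.07. The other probes of HNF4A and CYP1A2 were above background on no Spleen array, as were all but 1 of the lower probes of HAL, and the other probe of LTA on no Liver array, so that these differences are of measured signals and are not bounds. TPM1, a tropomyosin with many splice forms, had 23 probes between -2.12 and 3.79, of which the brightest gave 2.02, 13 were called higher and 9 lower. The first 30 bases of probes that disagree are shown with the difference each gave, the brightest first for each gene:
LCK (-0.20): cagccagggacttgattttgatgtatttta
LCK (3.91): tttctcttggtcatcaagaagctccttgag
HNF4A (-1.30): aaattatcctgcggaaagcatccattaccg
HNF4A (-7.39): catcaagctctttggcatggccaagattga
NR1I3 (-0.14): ccaaatgctggccctccactttaggctata
NR1I3 (-11.35): aaagtgctgggagccgtcaaaagggagccc
TPM1 (2.02): tggatttccaccgtgttaaagtgaaagatt
TPM1 (-2.12): gaaaagcattgatgacttagaagacgagct

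**Figure D5:**
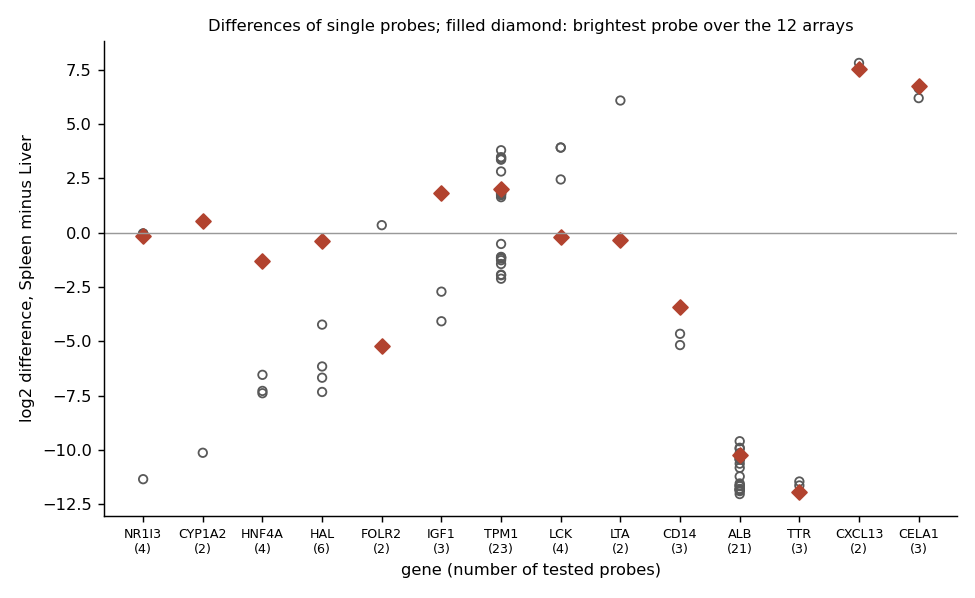
Log2 difference (Spleen minus Liver, y axis) of every tested probe of 14 genes (x axis, number of probes in brackets), with the brightest probe as a filled diamond. The probes of TTR, CXCL13 and CELA1 lie together and those of ALB spread from -12.03 to -9.60, while those of NR1I3, CYP1A2, HNF4A, LCK, LTA and TPM1 lie units apart.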

How the data were processed

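Spleen and Liver RNA of 6 pigs was measured on 1-colour Agilent arrays, 1 per sample, with both arrays of an animal on 1 slide and 2 animals on each of these 3 slides. The deposited intensity values, per the file headers, came from Agilent Feature Extraction 10.10.1.1, which subtracted background and detrended each array without normalizing between arrays, and the deposited 0 and 1 flags mark spots above background or uneven. The authors' deposited log2 values (44600 probes, each column with a median of 8.236) had identical distributions in all 24 columns. The submitters' processing notes name limma for them, and their steps are not stated in the labels. Their Spleen minus Liver differences correlated over probes with those of the scanner signals (r = 0.962).

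From 61625 spots, control spots were left out and repeats averaged to 60305 probes. Log2 signal was taken minus each array's 75th percentile. A probe was tested if well above background on all 6 arrays of either tissue with no outlier flag (38919 probes, 54.5% with a gene name through accessions, gene numbers and symbols). limma 3.58.1 in R 4.3.3 was fitted to the 12 arrays with tissue and animal as terms, and p-values were adjusted by Benjamini-Hochberg over all tested probes. The brightest probe (highest mean over 12 arrays) stood for a gene, and the thresholds for a call were 0.05 for the adjusted p and 1 for the difference. No array was dropped or imputed. The pairing comes from the animal number, and deviations from the tissue means correlated within an animal at 0.0646 to 0.324. The script was tested on simulated data. The gene lists, and the rule to name up to 8 members per list, those called against it, the 10 highest and lowest genes above background on 12 arrays and the 10 list genes of widest spread, were chosen with earlier results of these data known. Alternatives were pairing, slide, arrays fitted, scaling, background, deposited values, filter, probe rule, treat test, array weights and leaving out animals. Probe sequences are those of the scanner files, and no genome was used here. Values of some genes named by this rule are not reported here.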

Additional observations from a re-analysis of the deposited data

Results flagged for a closer look

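In 49 of 570 groups of 6 arrays of 1 tissue (8.6%), each for a named gene or a list mean, the highest or lowest array lay apart from the other 5 by Dixon's criterion, which chance meets in about 1 in 20 groups. Some genes were named for their wide spread in these data, and list means share members with named genes, so 8.6% cannot be compared with that rate. All values are log2 levels relative to the array's 75th percentile. Of the 49 flagged groups, 11 fell on the Liver array of animal 75 and 9 on that of animal 73. A further 7 fell on each of the Spleen arrays of animals 73 and 75, while neither array of animal 69 had one. The causes were not tested.

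Above the other 5 lay the Spleen array of animal 68 in MSC (4.03 against 2.17 to 2.66). Animal 68 had its Spleen array below the other 5 in GBP1 (3.57 against 4.16 to 4.47) and GUSB (3.70 against 4.0 to 4.16). The Spleen array of animal 70 was above the other 5 in CD14 (7.33 against 0.18 to 0.95). Below the other 5 lay the Spleen array of animal 70 in ACTA2 (6.89 against 7.56 to 7.72) and HSPB7 (-1.0 against -0.15 to 0.34). Animal 71 had its Spleen array above the other 5 in SLA-1 (9.41 against 8.64 to 8.91). The Spleen array of animal 71 was below the other 5 in CELA2A (-3.50 against -0.79 to 0.70). Above the other 5 lay the Spleen array of animal 73 in APOA4 (1.56 against -7.96 to -4.62), EPCAM (-1.23 against -6.51 to -4.88), F3 (-2.23 against -3.89 to -3.47), LGALS4 (1.45 against -2.92 to -2.62), SLC51B (-0.79 against -7.91 to -6.45), the mean of the bile duct markers (-0.46 against -2.50 to -1.80) and the mean of the intestinal markers (-0.46 against -2.12 to -1.60). Animal 75 had its Spleen array above the other 5 in the mean of the neutrophil and monocyte list (0.62 against 0.18 to 0.34). The Spleen array of animal 75 was below the other 5 in ACKR1 (0.19 against 2.02 to 2.64), CCR6 (-3.95 against -2.58 to -1.86), CEL (-3.53 against -2.31 to -1.74), CLEC4G (0.77 against 2.67 to 3.45), IGFBP5 (-0.02 against 0.96 to 1.33) and NPY (-3.30 against -1.87 to -1.09).

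Above the other 5 lay the Liver array of animal 68 in FOXO1 (2.87 against 2.17 to 2.34). Animal 68 had its Liver array below the other 5 in C3 (7.45 against 8.22 to 8.50), CSF1R (-2.41 against -1.59 to -1.30), PRPH (-4.75 against -3.40 to -2.71) and SLA-1 (8.01 against 8.93 to 9.46). The Liver array of animal 70 was below the other 5 in CCL21 (-0.37 against 1.11 to 1.69). Below the other 5 lay the Liver array of animal 71 in CELA2A (-1.84 against 1.63 to 2.11). Animal 73 had its Liver array above the other 5 in C8A (7.43 against 6.96 to 7.09), CR2 (-6.63 against -7.41 to -7.22), FCGR2B (3.72 against 2.33 to 2.83), MRC1 (4.95 against 3.91 to 4.18) and VSIG4 (3.65 against 2.59 to 2.95). The Liver array of animal 73 was below the other 5 in CCR7 (-4.38 against -3.13 to -2.58), FTCD (4.72 against 5.02 to 5.18), LFNG (0.40 against 0.88 to 1.15) and PSMB10 (3.08 against 3.57 to 3.83). Above the other 5 lay the Liver array of animal 75 in CCL19 (3.15 against 1.17 to 1.86), CXCL13 (-2.39 against -4.08 to -3.51), CXCR4 (-2.20 against -2.82 to -2.63), SAA1 (8.81 against 2.95 to 4.0), SAA2 (9.78 against 4.98 to 6.27), SAA3 (9.84 against 4.62 to 5.60) and SERPINA3 (7.17 against 4.58 to 4.92). Animal 75 had its Liver array below the other 5 in CA2 (1.48 against 2.60 to 3.16), CYP1A1 (-0.98 against 3.85 to 5.13), GATA2 (2.07 against 3.25 to 3.61) and MADCAM1 (1.16 against 1.95 to 2.22).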

How the results depend on the processing

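The number of called genes stayed within 1.5 times 4057 under every alternative run, from 2860 with limma's treat test against a 2-fold change to 4472 with no filter on dim probes. Normexp gave 3153, the authors' deposited values 3446, quantile normalization 4206 and median centring 4022. Without 1 animal at a time it lay between 4018 and 4088. Without the replicate block it was 4051, and with all 24 arrays and the replicate block 4059. Dropping the block ended 1 call among named genes, that of APOD (adjusted p = 0.054). Median centring moved the median of all genes from 0.106 to -0.006. Of 5233 differences of 241 named genes under the alternatives, 5128 kept direction and call, 70 lost the call, 30 gained one and 5 reversed. APOD was -0.169 under normexp. With the mean of a gene's probes IGF1 was -1.664, CYP1A2 -4.788, LCK 2.515 and LTA 2.868, since their probes differ. SLC4A1 (-0.038) lost its call under that rule. Calls lost under normexp were also those of HNF4A (-0.90), CD4 (0.79), CTLA4 (0.61), HEY2 (0.62), PRG4 (-0.76) and CYP1B1 (0.80). With the 12-array filter LYVE1 lost its call (-0.98), with quantile normalization TNFSF10 (-0.99), and with the mean of probes NLRC5 (0.98). MX1 (1.32) and GNLY (1.20) gained one with quantile normalization. The cause was not tested. Of 968 list medians 846 moved by less than the spread between animals, and normexp moved 28 of the 44 lists, keeping genes above background on all 12 arrays 22, and the authors' values 21. Under normexp the median was 1.02 for innate sensors, 0.73 for macrophage genes and 1.37 for G protein signalling. With the 12-array filter, which leaves out genes that are dim in 1 tissue, it was 3.5 for B cell surface, -6.76 for coagulation, -3.30 for amino acid breakdown, -2.68 for bile acid and -0.04 for red cell genes. With the mean of a gene's probes that of the nerve markers turned from 2.61 to -0.58. Signal over background limits genes that are dim in 1 tissue to lower bounds.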
